A study of Mus musculus with 24 samples.

Results

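Ribosome biogenesis genes encode the factors that make ribosomes in the nucleolus. The 33 genes described here were taken by symbol from the 24046 rows of a mouse leukaemia count table. All 33 passed the filter on low counts, as did 14099 genes in all. Their level was followed over all 24 libraries.

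The libraries hold polyadenylated RNA of bone marrow leukaemia cells with the MLL-AF9 fusion, taken from moribund mice. The titles of 3 sets mark the leukaemias as secondary, and those of the VavCre Arid2 set carry no such mark. They form 4 sets, each with 3 control libraries (Cre with wild-type alleles) and 3 floxed libraries (Cre with homozygous floxed alleles). The genes with floxed alleles, Arid1b and Arid2, belong to SWI/SNF chromatin remodelling complexes, in which their proteins bind DNA. Of the 4 sets, VavCre Arid1b and VavCre Arid2 have Vav-driven Cre, which is active in blood cells from development on. In both MxCre sets, Cre was induced with pIpC, which mimics viral RNA, at 12.5 µg per g of body weight in 3 injections, beginning 21 days after transplantation. In both MxCre sets the title and the cell type label of the floxed libraries name different genes: the set titled A2 is labelled Arid1b, and the set titled A1b is labelled Arid2. These sets are called by their titles here, and which gene was deleted in them cannot be told apart. No label says whether the 3 libraries of a group came from separate leukaemias or separate mice, so a p-value here reflects the spread among these samples alone. Replicates keep the numbers of their titles, and the VavCre Arid1b floxed libraries are numbered 1, 3 and 4.

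Ribosome production begins when RNA polymerase I transcribes the long ribosomal RNA precursor. Box C/D and box H/ACA particles then modify it, guided by small nucleolar RNAs, and a small-subunit and a large-subunit assembly line fold and trim it. The transcription factor MYC is known to activate many of these genes through E-boxes, and dividing leukaemia cells depend on the pathway. The 33 genes were ordered by 6 roles: 3 RNA polymerase I subunits, 5 nucleolar organisers and chaperones, 3 box C/D proteins, 3 box H/ACA proteins, 10 factors of small-subunit processing and 9 of large-subunit processing.

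The E-box letters CACGTG, which read the same on both strands, were searched for from 250 bases before to 50 bases after each start in the RefSeq promoter table of build GRCm38.p6. A promoter was found for 27 of the 33 genes. The letters occurred in 7 of the 27, or 25.9%, beside 9.18% of the 16803 genes of the count table with a promoter in the same table and 19.6% of other genes of the pathway and the MYC network. In Imp4 and Nop2 they lie before the start, and in Mybbp1a, Pes1, Tsr1, Utp20 and Wdr43 after it. The 150 bases before the start are shown for the first pair, 5′ to 3′ on the plus strand and with the E-box letters in capitals, as examples of members that hold the letters before the start. Imp4 (chr1:34439679-34439828) encodes a component of the small-subunit processome, and Nop2 (chr6:125131733-125131882) a ribosomal RNA methyltransferase of the large subunit.
Imp4: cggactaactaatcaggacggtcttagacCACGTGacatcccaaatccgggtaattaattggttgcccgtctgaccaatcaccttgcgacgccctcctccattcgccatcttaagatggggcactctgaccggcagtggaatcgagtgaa
Nop2: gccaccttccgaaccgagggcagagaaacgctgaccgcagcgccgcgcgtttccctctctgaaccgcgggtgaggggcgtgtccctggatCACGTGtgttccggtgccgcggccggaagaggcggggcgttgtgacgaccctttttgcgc
The E-box starts 121 bases before the start of Imp4 and 60 bases before that of Nop2. A match of letters is a description of the sequence, and binding was not measured here.

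Totals ran from 12069153 to 38315410 counts per library, and the lowest count of any of the 33 genes in any library was 302, for Rrp9. Summed myeloid leukaemia markers (7 genes) ran from 1708 to 12469 CPM (read counts divided by the scaled library total), and 5 B cell markers summed to between 0.713 and 22.7 CPM. No defining marker of the lists was at 0 in any group. Floxed library 3 of the set titled A2 and floxed library 2 of the set titled A1b had the highest sums of mature blood cell markers. In them 9 neutrophil genes summed to 11807 and 21154 CPM, and erythroid genes to 764 and 376 CPM (10 genes, of which 3 hemoglobin rows repeat another in every library and were counted once). The next highest sums were 9543 CPM for neutrophil genes, in control 3 of the VavCre Arid2 set, and 58.3 CPM for erythroid genes, in control 2 of the set titled A1b. In bulk RNA, fewer cells of a type and less RNA per cell cannot be told apart. The Y-linked gene Kdm5d was above 10 CPM in 10 libraries, and this split coincided with genotype in 2 sets, where all VavCre Arid1b controls and all floxed libraries of the set titled A2 had it and their counterparts did not.

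The 33 genes differed widely in level. Per kilobase of coding sequence, the histone and ribosome chaperone Npm1 was highest at a mean of 733 CPM per kb over the 24 libraries. Nucleolin, Ncl, which organises nucleolar chromatin, followed at 548 CPM per kb, then the H/ACA protein Nhp2 at 225 and the nucleophosmin relative Npm3 at 151. The lowest levels belonged to the large scaffold protein gene Utp20, at 11.5 CPM per kb, and to Rrp12 and Polr1b, at 18.8 and 19.0 CPM per kb. Between its lowest and highest library, the level in CPM moved least in Polr1c, a subunit shared by RNA polymerases I and III, from 40.0 to 65.7, or 1.64-fold. It moved most in Wdr12, a member of the PeBoW complex that matures the large subunit, from 39.8 to 187, or 4.70-fold.

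The most regular pattern was between libraries rather than between genotypes: most of the 33 genes stood high together or low together in a given library. Each gene was set against its own median over the 24 libraries, on the log2 CPM scale. In 9 libraries at least 26 of the 33 genes lay above their median, in 9 others at most 7 did, and 6 libraries lay between (limits chosen after the values were seen). Over all tested genes, the share above the median stayed between 46.5% and 51.6% in every library. The median deviation of the 33 genes ran from -0.51 to 0.52.

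Libraries of the same group stood at opposite ends. Within the VavCre Arid1b set, 13, 17 and 28 genes were above their median in controls 1, 2 and 3, and 27, 2 and 3 in floxed libraries 1, 3 and 4. In the VavCre Arid2 set the counts were 26, 24 and 19 in controls and 22, 29 and 7 in floxed libraries. Counts in the set titled A2 were 3, 6 and 28 in controls, then 33, 31 and 0 in floxed libraries. Those in the set titled A1b were 1, 26 and 0 in controls, followed by 32, 12 and 7 in floxed libraries. High and low libraries by the limits above were found together in 6 of the 8 groups, and only the VavCre control groups lacked that split. Floxed library 1 of the set titled A1b held the highest level of 17 of the 33 genes, while floxed library 3 of the set titled A2 and floxed library 2 of the set titled A1b each held the lowest level of 9. Floxed library 2 of the set titled A1b also held the highest level of 5. The median within-group SD was 0.34 for the 33 genes, close to the 0.36 of all tested genes (log2), while the median range of the 8 group means was 0.46 against 0.80.

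**Figure D1:**
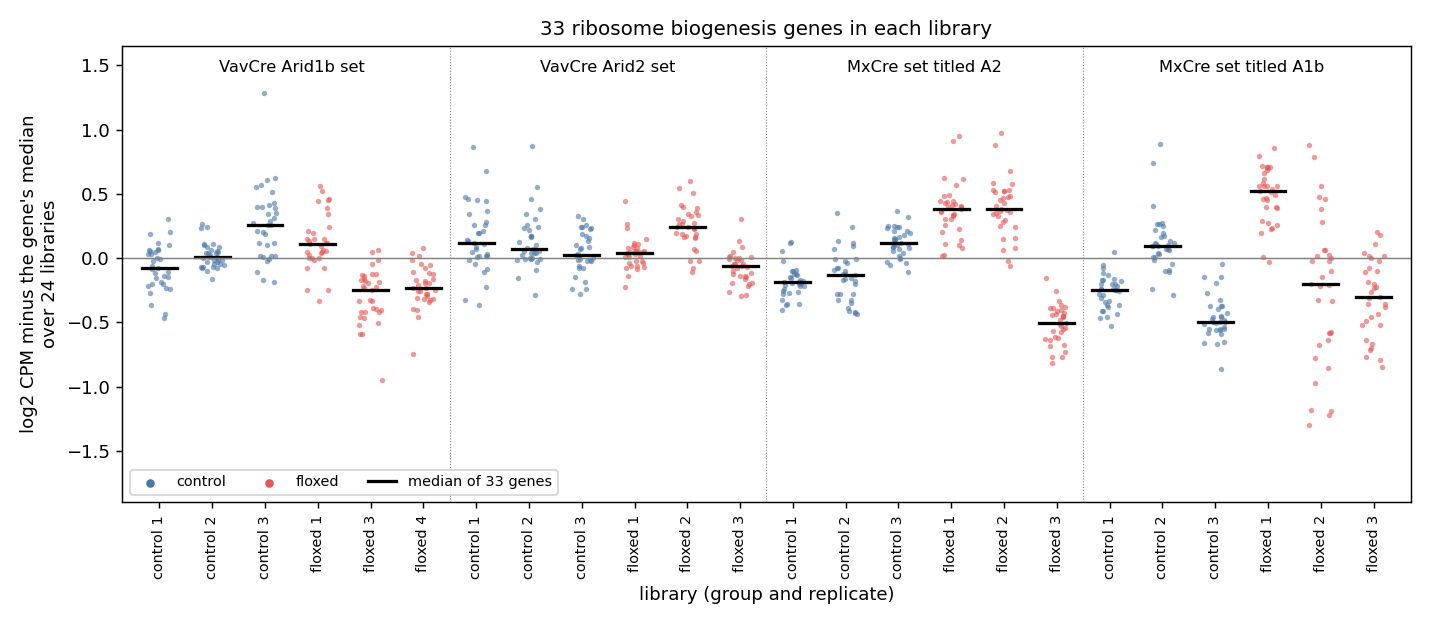
Level of the 33 genes in each of the 24 libraries (x axis), as log2 CPM minus the gene's median over all libraries (y axis), with 1 point per gene, controls in blue, floxed in red and a black bar at the median of the 33. The median of the 33 runs from -0.51 in floxed library 3 of the set titled A2 to 0.52 in floxed library 1 of the set titled A1b. In floxed library 2 of the set titled A1b the points spread from -1.30 (Heatr1) to 0.88 (Nhp2).

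Other genes of the pathway and the MYC network moved in the same libraries. Of 130 such genes tested, 103, 110 and 12 lay above their median in floxed libraries 1, 2 and 3 of the set titled A2, and 30, 84 and 15 in controls 1, 2 and 3 of the set titled A1b. Myc itself stood at 268, 304 and 85.5 CPM in the former and at 181, 138 and 88.1 CPM in the latter. Over the 24 libraries Myc was lowest, at 61.0 CPM, in floxed library 3 of the set titled A1b, where 7 of the 33 genes were above their median. Myc did not follow the 33 genes in every library. It was at 121 CPM in control 3 of the VavCre Arid1b set, where 28 were above their median. In floxed library 3 of the VavCre Arid2 set it was at 194 CPM, with 7 above. Of 21 cell cycle genes, 20, 20 and 0 were above their median in the floxed libraries of the set titled A2, following the same order as the 33 genes. The sets with VavCre did not follow it. There, 17, 13 and 20 cell cycle genes were above their median in Arid1b controls against 2, 1 and 2 in floxed libraries, including floxed library 1, where 27 of the 33 ribosome biogenesis genes stood high. In the VavCre Arid2 set the cell cycle counts were 20 in each control and 0, 10 and 5 in floxed libraries. The part of proliferation or of MYC in these levels was not tested.

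**Figure D2:**
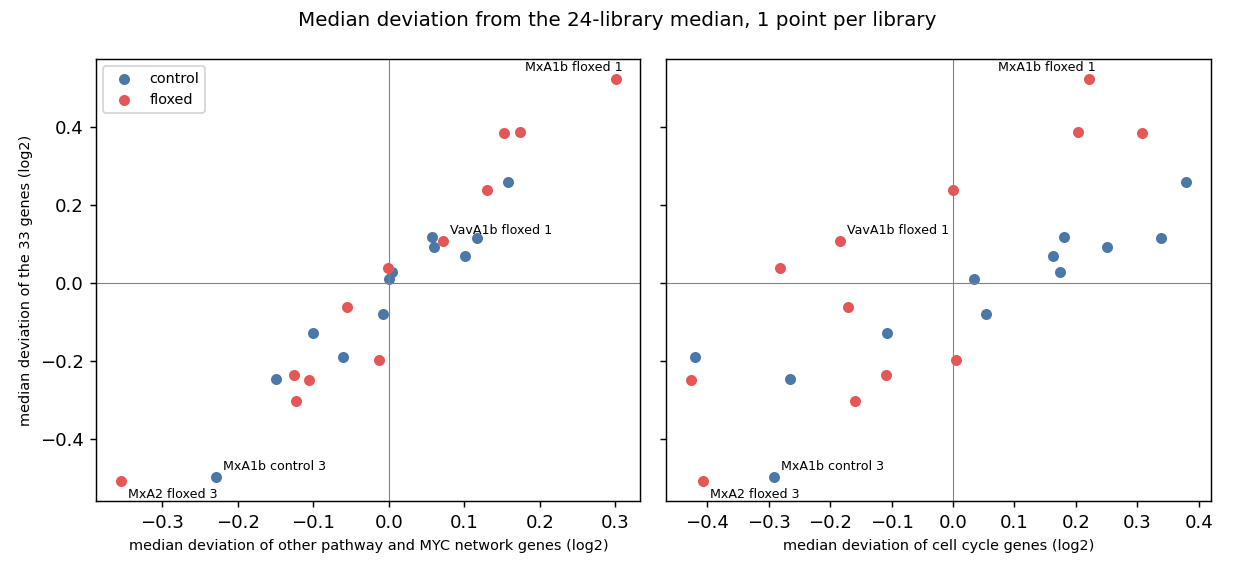
Median deviation of the 33 genes (y axis, log2) against that of 130 other pathway and MYC network genes (left) and of 21 cell cycle genes (right), with 1 point per library. The points on the left follow 1 band, while on the right floxed library 1 of the VavCre Arid1b set has high ribosome biogenesis genes (0.11) with low cell cycle genes (-0.18).

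The first comparison asked which genes differed between floxed and control libraries of each set. No gene of the 33 passed an adjusted p of 0.05 in any set by edgeR's quasi-likelihood test, with Benjamini-Hochberg adjustment over all tested genes. The SE and p of a gene use a spread estimated over all 24 libraries. They can therefore differ from what the values inside a set alone would give. Of all genes, that test called 6.57% in the VavCre Arid1b set, 1.31% in the VavCre Arid2 set, 0.0284% in the set titled A2 and 0.00709% in the set titled A1b. At an unadjusted p under 0.05 there were 2, 2, 0 and 7 of the 33 genes in the same order, beside 24%, 19.5%, 10.6% and 17.4% of all genes. The 95% intervals of the fold change stayed within 2-fold in either direction for 29, 29, 30 and 31 of the 33 genes.

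The directions differed between sets. In the VavCre Arid1b set, 27 of the 33 genes were lower in floxed libraries, with a median log2 fold change of -0.20 beside -0.06 for all genes, of which 55.1% were lower. In the VavCre Arid2 set 14 were lower and 19 higher, with a median of 0.01 beside 0.00. The sets titled A2 and A1b each had 30 genes higher and 3 lower, with medians of 0.16 and 0.23 beside 0.02 and 0.01 for all genes. Leaving out 1 library moved these counts. Without control 3 the VavCre Arid1b count of lower genes was 20 and the median -0.03. Without floxed library 1 the set titled A1b had 14 higher and 19 lower, with a median of -0.17, and 2 genes passed: Fbl, higher by 0.71 (edgeR adjusted p = 0.0200), and Heatr1, lower by 0.79 on the log2 scale (adjusted p = 0.0353). That fit called 1535 of 14369 genes. Its remaining floxed libraries include floxed library 2, in which levels were lower the longer the coding sequence (described with the length plot). Fbl has 981 bp of coding sequence and Heatr1 6429 bp, and Heatr1 had its lowest level of the 24 libraries, 54.0 CPM, in that library. In floxed library 3 of the set Heatr1 was at 85.7 CPM, also below the controls at 137, 132 and 94.0 CPM. The part of coding length in these 2 calls was not tested. Without floxed library 3, all 33 genes of the set titled A2 were higher, with a median of 0.40, and none passed. That fit called 10 of 14319 genes. It gave an edgeR unadjusted p under 0.05 for 9 of the 33 genes, beside 16.4% of all genes. The share of all genes that were higher was not computed for it. The VavCre Arid2 count of lower genes was 24 without floxed library 2. In the set titled A2 it was 5 without control 1 or control 2, 10 without floxed library 1 and 11 without floxed library 2. For the set titled A1b it was 6 without control 1, 10 without control 3, and 1 without floxed library 2 or floxed library 3. The split by Kdm5d moved with both counts: with a term for it, 17 genes were lower in the VavCre Arid1b set and 15 in the set titled A2. In these sets the split coincides with genotype. The size of the term therefore came from the groups that it divides, the VavCre Arid2 floxed group and both groups titled A1b. It cannot separate the split from genotype.

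**Figure D3:**
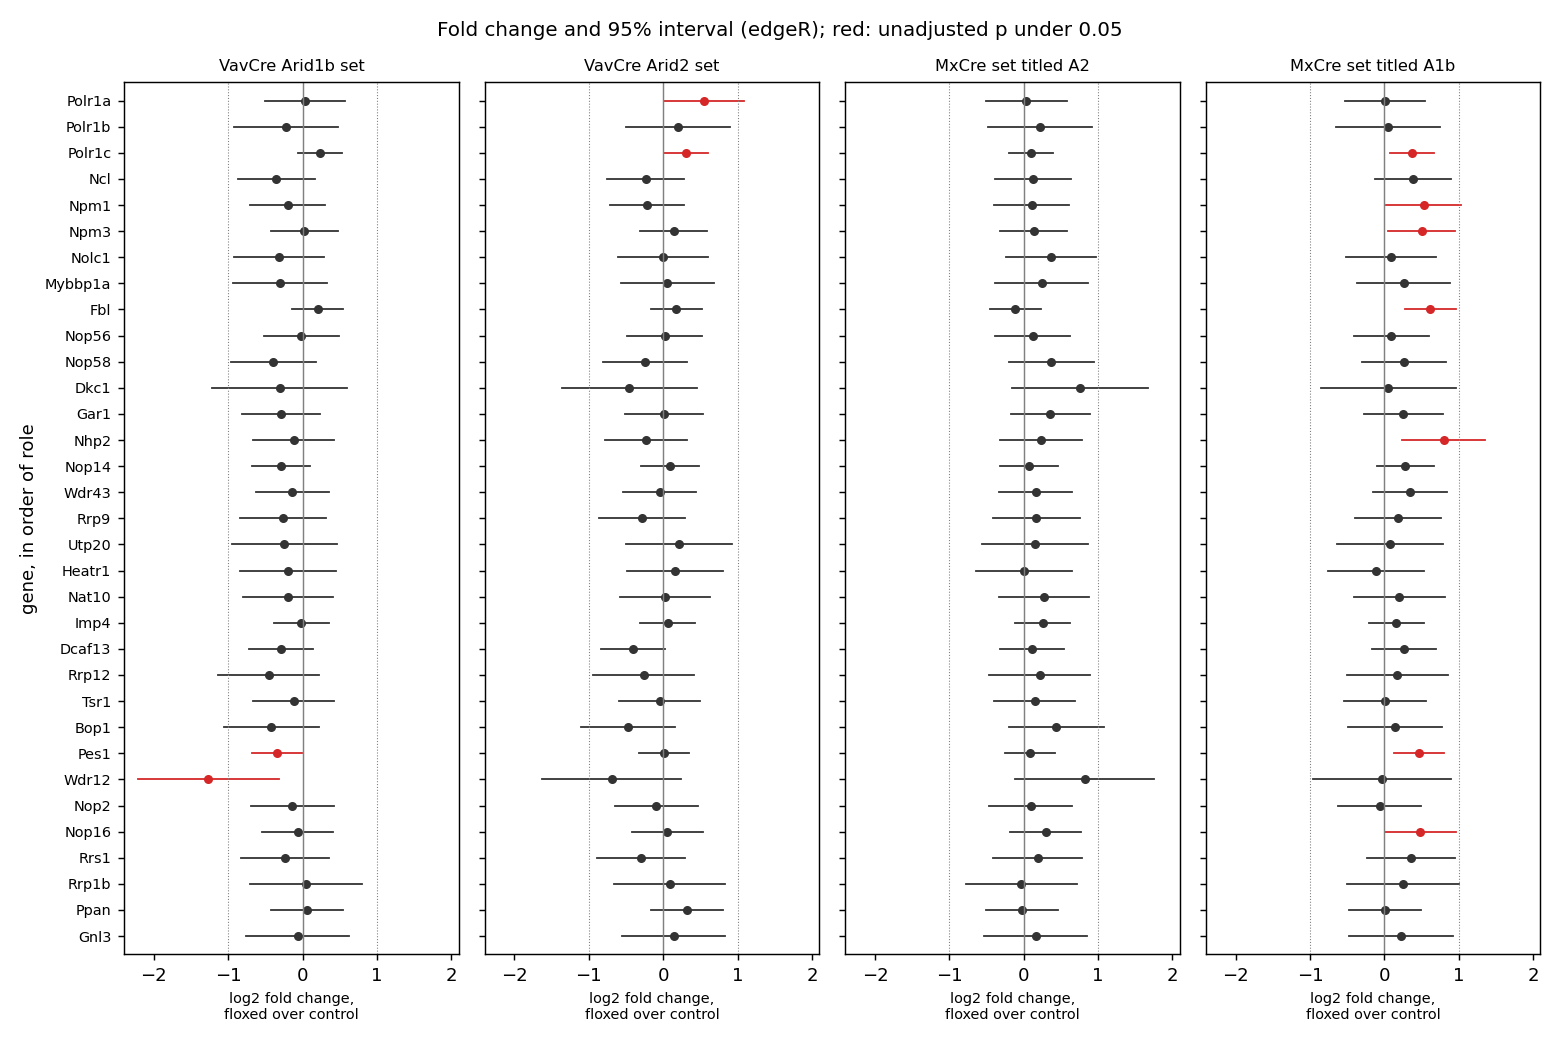
Log2 fold change of floxed over control (x axis) with its 95% interval for the 33 genes in order of role (y axis), in the 4 sets, with dotted lines at 2-fold and red for an unadjusted p under 0.05. Most intervals cross 0, and Wdr12 in the VavCre Arid1b set, at -1.26, is farthest from it.

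Among RNA polymerase I subunits, Polr1a and Polr1c had the 2 smallest p-values of the 33 genes in the VavCre Arid2 set, both short of the adjusted threshold. Polr1a, the largest catalytic subunit, was at 81.7, 106 and 104 CPM in controls 1, 2 and 3 and at 143, 154 and 130 CPM in the floxed libraries. The groups did not overlap, and the log2 fold change was 0.55 ± 0.26 (SE), with an edgeR adjusted p of 0.247. Polr1c was at 45.4, 50.1 and 40.8 CPM in controls and 58.0, 64.2 and 46.8 CPM in floxed libraries of that set, where floxed library 3 fell among the controls (0.31 ± 0.14, adjusted p = 0.228 by edgeR). Polr1c in the set titled A1b ran 40.9, 45.0 and 40.0 CPM against 55.2, 58.5 and 48.8 CPM, with all floxed libraries above all controls (0.37 ± 0.14, edgeR adjusted p = 0.191). Its values in the VavCre Arid1b set were 41.6, 49.7 and 48.7 CPM in controls and 65.7, 47.8 and 51.0 CPM in floxed libraries. Floxed library 1 was alone in standing high there (0.23 ± 0.14, edgeR adjusted p = 0.331). Polr1b, the second largest subunit, had log2 fold changes between -0.22 and 0.22 in the 4 sets, with 0.20 ± 0.33 in VavCre Arid2. Polr1a gave 0.01 in the set titled A1b on the log2 scale, with floxed libraries at 128, 45.1 and 91.6 CPM, the largest SD of this gene in any group (41.8 CPM).

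Of the nucleolar organisers and chaperones, Ncl had log2 fold changes of -0.35, -0.24, 0.13 and 0.38 in the VavCre Arid1b, VavCre Arid2, titled A2 and titled A1b sets. Npm1 gave -0.20, -0.22, 0.11 and 0.53 in that order. Without control 3 of the VavCre Arid1b set, Ncl gave -0.04 and Npm1 0.07 there. For Npm1, the floxed libraries of the set titled A1b stood at 752, 928 and 648 CPM and the controls at 520, 661 and 431 CPM, so that control 2 overlapped the floxed range (edgeR adjusted p = 0.264). Npm3 was at 64.6, 62.6 and 68.9 CPM in those controls and 75.0, 132 and 70.8 CPM in the floxed libraries, without overlap. Floxed library 2, which also held the neutrophil and erythroid RNA, was the highest, and without it the log2 fold change of Npm3 was 0.15 in place of 0.50. Nolc1, a chaperone of small nucleolar particles, and Mybbp1a, a nucleolar MYB-binding protein, ranged from -0.32 to 0.37 over the sets.

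The box C/D proteins form the particle that methylates ribosomal RNA. Fibrillarin, Fbl, its methyltransferase, gave the smallest p of the 33 genes in the set titled A1b, at 58.8, 68.9 and 55.5 CPM in controls and 82.1, 112 and 87.6 CPM in floxed libraries. All 3 floxed libraries were above all 3 controls, and the log2 fold change was 0.62 ± 0.16 (SE, 95% interval 0.28 to 0.96), with an edgeR adjusted p of 0.112. Without floxed library 2 it was 0.47 (adjusted p = 0.331). Fbl lay lower in the set titled A2, by 0.11 on the log2 scale, with floxed library 3 at 52.7 CPM, the lowest of all 24 libraries. Its partners Nop56 and Nop58, which hold the particle together, gave 0.10 and 0.27 in the set titled A1b. Nop58 gave -0.39 and Nop56 -0.02 in the VavCre Arid1b set.

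The box H/ACA proteins make pseudouridine in ribosomal RNA and also bind telomerase RNA. Nhp2 was at 67.1, 97.3 and 74.9 CPM in controls of the set titled A1b and at 128, 179 and 110 CPM in its floxed libraries. The groups did not overlap (log2 fold change 0.80 ± 0.26, edgeR adjusted p = 0.153), and without floxed library 2 the difference was 0.57. The pseudouridine synthase dyskerin, Dkc1, which is X-linked, ran 118, 115 and 170 CPM in controls of the set titled A2 and 291, 297 and 91.0 CPM in floxed libraries. Floxed library 3 was thus below every control while the others were above them (0.75 ± 0.43, edgeR adjusted p = 0.572, and 1.14 with an adjusted p of 0.213 without that library). Gar1 also had floxed library 3 below every control and the others above them, with 45.3, 51.6 and 58.1 CPM against 85.2, 74.1 and 39.5 CPM (0.36 ± 0.25, edgeR adjusted p = 0.664). All 3 genes were lower in the VavCre Arid1b set, between -0.30 and -0.12, and without its control 3 only Gar1 was (-0.26), with Dkc1 at 0.05 and Nhp2 at 0.04.

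Small-subunit factors build the processome on the nascent precursor. All 10 were lower in the VavCre Arid1b set, from -0.46 for Rrp12 to -0.02 for Imp4, and none passed. Without control 3 of that set 7 were lower and 3 higher. Nop14, a core processome protein, was at 56.3, 58.4 and 68.3 CPM in those controls and 56.9, 46.7 and 46.1 CPM in floxed libraries, with floxed library 1 inside the control range (-0.29 ± 0.19, edgeR adjusted p = 0.367). Dcaf13 was the small-subunit gene with the clearest separation in the VavCre Arid2 set, at 90.2, 82.3 and 75.9 CPM in controls and 63.2, 61.5 and 62.9 CPM in floxed libraries. Every floxed library was below every control, by a log2 fold change of -0.40 ± 0.21 (edgeR adjusted p = 0.284). That SE uses the spread over all 24 libraries. With the 6 libraries of the set fitted alone, Dcaf13 was called, beside 7.6% of all genes. In the same set the processome scaffolds Heatr1 and Utp20 gave 0.16 and 0.21. The remaining members Wdr43, Rrp9, Nat10, an RNA cytidine acetyltransferase, and Tsr1 ranged from -0.28 to 0.35 across the 4 sets.

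Large-subunit factors included the 3 members of the PeBoW complex, Pes1, Bop1 and Wdr12. In the VavCre Arid1b set Wdr12 was at 87.7, 77.6 and 187 CPM in controls 1, 2 and 3 and at 61.0, 39.8 and 45.9 CPM in the floxed libraries. The means were 118 ± 60.6 and 48.9 ± 10.9 CPM (SD, n = 3 each), and no floxed library reached a control. The log2 fold change was -1.26 ± 0.45 (SE, 95% interval -2.21 to -0.32), with an edgeR adjusted p of 0.0942. Control 3 set much of its size, since without it the change was -0.73 (adjusted p = 0.441). Monocyte and dendritic markers (8 genes) moved with the groups, summing to 569 to 1078 CPM in these controls and 1686 to 4322 CPM in the floxed libraries. Their part in the result was not tested.

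Wdr12 also lay lower in the VavCre Arid2 set, at 141, 141 and 87.9 CPM against 77.7, 80.8 and 69.8 CPM, again without overlap (-0.69 ± 0.44, edgeR adjusted p = 0.407). Neutrophil markers summed to 4173 to 9543 CPM in the controls of that set and 232 to 1027 CPM in its floxed libraries, and their part was not tested. Its level in the set titled A2 ran 58.1, 61.6 and 76.4 CPM in controls and 145, 142 and 58.8 CPM in floxed libraries, where floxed library 3 fell within the control range (0.82 ± 0.45, adjusted p = 0.545 by edgeR). The change in the set titled A1b was -0.03 ± 0.44. None of these differences passed the adjusted threshold.

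Bop1 was free of overlap in the same 2 sets as Wdr12, and Pes1 in the set titled A1b. Bop1 in the VavCre Arid2 set was at 149, 159 and 134 CPM against 104, 107 and 108 CPM, without overlap (-0.47 ± 0.30, edgeR adjusted p = 0.411). Bop1 in the set titled A2 ran 93.9, 80.2 and 129 CPM against 166, 174 and 70.8 CPM, the last again from floxed library 3 (0.44 ± 0.30, edgeR adjusted p = 0.659). Pes1 was at 126, 160 and 126 CPM in controls of the set titled A1b and 202, 170 and 198 CPM in its floxed libraries, without overlap (0.47 ± 0.16, edgeR adjusted p = 0.161). Pes1 in the VavCre Arid1b set was at 185, 171 and 226 CPM in controls and 178, 136 and 144 CPM in floxed libraries, with floxed library 1 inside the control range (-0.34 ± 0.16, edgeR adjusted p = 0.205). The other large-subunit genes Nop2, Nop16, Rrs1, Rrp1b, Ppan and Gnl3 gave log2 fold changes between -0.30 and 0.49, the highest being Nop16, a late nucleolar assembly factor, in the set titled A1b (edgeR adjusted p = 0.283).

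**Figure D4:**
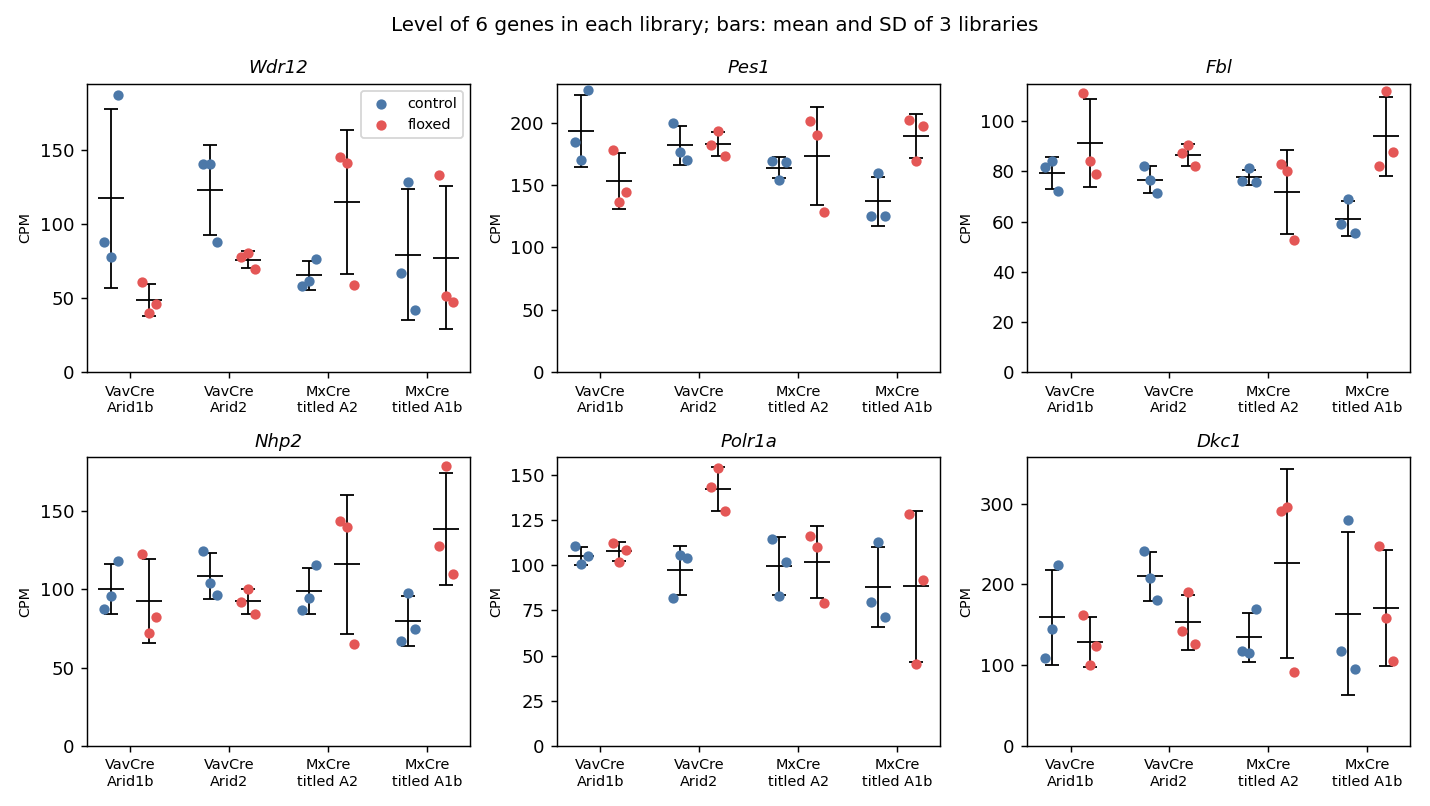
Level in CPM (y axis, from 0) of Wdr12, Pes1, Fbl, Nhp2, Polr1a and Dkc1 in each library of the 4 sets (x axis), controls in blue and floxed in red, with bars at the mean and SD of 3 libraries. Wdr12 shows control 3 of the VavCre Arid1b set at 187 CPM above the other controls, and Dkc1 shows floxed libraries of the set titled A2 at 291, 297 and 91.0 CPM.

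Counting genes whose 2 groups did not overlap gave 0 higher and 4 lower of the 33 in the VavCre Arid1b set, namely Wdr12, Rrp12, Bop1 and Heatr1. Of all genes, 16.3% were entirely higher and 16.1% entirely lower there. In the VavCre Arid2 set, Polr1a and Ppan were entirely higher and 6 were entirely lower, namely Dcaf13, Wdr12, Bop1, Rrs1, Rrp9 and Rrp12, beside 17.9% and 18.2% of all genes. The set titled A2 had none in either direction, beside 7.18% and 7.78%. The set titled A1b had 5 higher, Fbl, Nhp2, Pes1, Polr1c and Npm3, and 0 lower, beside 6.55% and 7.55%. Nhp2 and Npm3 have the shortest coding sequences of the 33 genes.

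In floxed library 2 of the set titled A1b the level of the 33 genes followed coding length. Across the genes of that library, Spearman's rho between deviation and coding length was -0.884 over the 33 genes and -0.514 over all genes with a length. Genes are not independent replicates, and the value is a description of that library. The 11 shortest genes (459 to 1335 bp) had a median deviation of 0.39, the 11 in the middle (1410 to 2172 bp) -0.10, and the 11 longest (2196 to 8367 bp) -0.85. All tested genes in the same ranges showed the same order, at 0.35 up to 1335 bp, -0.11 from there to 2172 bp and -0.52 above it. In floxed libraries 1 and 3 of the set, the medians of the 11 shortest and 11 longest genes were 0.39 and 0.56, and -0.19 and -0.36. Of the 7 genes with an unadjusted p under 0.05 in this set (Fbl, Nhp2, Pes1, Polr1c, Npm3, Npm1 and Nop16), Fbl and Pes1 kept it without floxed library 2, and Nop14 came under it. The log2 fold changes with and without that library were 0.47 and 0.54 for Pes1, 0.62 and 0.47 for Fbl, 0.80 and 0.57 for Nhp2, and 0.37 and 0.31 for Polr1c. They were 0.49 and 0.43 for Nop16, 0.53 and 0.38 for Npm1, 0.50 and 0.15 for Npm3, and 0.28 and 0.44 for Nop14. RNA quality was not measured in the files.

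**Figure D5:**
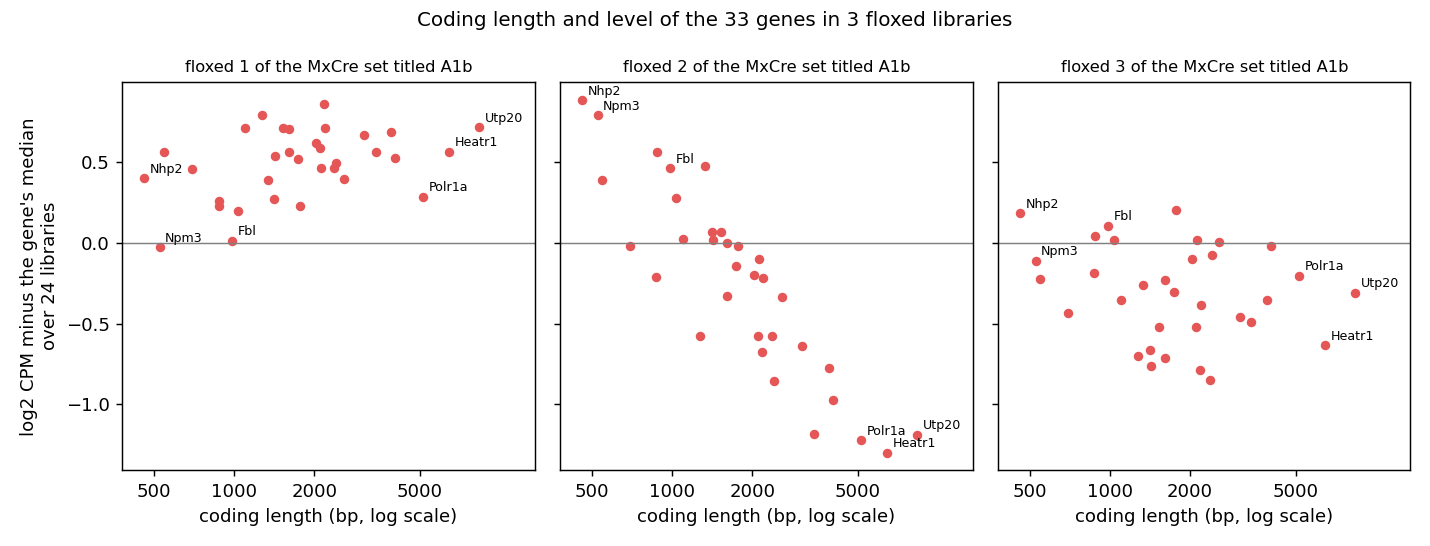
Deviation of the 33 genes from their 24-library median (y axis, log2 CPM) against coding length (x axis, bp, log scale) in floxed libraries 1, 2 and 3 of the set titled A1b. In floxed library 2 the points fall with length (rho -0.884), from 0.39 for the median of the 11 shortest genes to -0.85 for the 11 longest.

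The second comparison asked whether the floxed effect differed between sets, as the difference of log2 fold changes tested within the same model. None of the 33 genes passed for any of the 6 pairs of sets. Wdr12 came nearest, with an effect in the VavCre Arid1b set lower by 2.08 ± 0.63 (SE, log2) than in the set titled A2, at an edgeR adjusted p of 0.0517. The Kdm5d split coincides with genotype in both of these sets, in opposite directions, and with a term for it the difference was -1.87 ± 1.00 (edgeR adjusted p = 0.454). The size of that term came from groups of the other sets, so it cannot separate the split from genotype here. Pes1 followed with -0.81 ± 0.23 between VavCre Arid1b and the set titled A1b (edgeR adjusted p = 0.0844). The smallest p of the remaining pairs belonged to Wdr12 at -1.51 ± 0.63 between VavCre Arid2 and the set titled A2 (edgeR adjusted p = 0.216), Pes1 at -0.35 ± 0.23 between the VavCre sets (adjusted p = 0.662), Nhp2 at -1.03 ± 0.37 between VavCre Arid2 and the set titled A1b (edgeR adjusted p = 0.123) and Fbl at -0.73 ± 0.23 between the sets titled A2 and A1b (edgeR adjusted p = 0.130). The calls over all genes in these pairs were 0.0142% for VavCre Arid1b against VavCre Arid2, 7.35% against titled A2 and 0.745% against titled A1b. For VavCre Arid2 they were 0.489% against titled A2 and 1.5% against titled A1b, and for titled A2 against titled A1b 0.192%. Unadjusted p-values under 0.05 were found for 0, 1, 5, 2, 3 and 1 of the 33 genes in that order, beside 9.85%, 25.2%, 19.7%, 18.6%, 22.6% and 17.6% of all genes.

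Levels were also compared over the 4 control groups and over the 4 floxed groups by F tests in the edgeR model. No gene of the 33 passed in either, beside 0.0922% and 9.06% of all genes. At an unadjusted p under 0.05, Pes1 was the 1 gene among controls (adjusted p = 0.399 by edgeR) and there was none among floxed groups, beside 11.5% and 30.1% of all genes. The smallest adjusted p among floxed groups was 0.224, for Polr1a.

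Of 131 other genes of the pathway and the MYC network, 130 were tested, and none passed in any set by edgeR. At an unadjusted p under 0.05 there were 9, 10, 0 and 23 of them in the VavCre Arid1b, VavCre Arid2, titled A2 and titled A1b sets. The shares of all genes there were 24%, 19.5%, 10.6% and 17.4%. Of the 130, 96 were lower in VavCre Arid1b, 74 lower in VavCre Arid2, 88 higher in the set titled A2 and 104 higher in the set titled A1b. Beside them, 55.1% and 49.5% of all genes were lower in the VavCre sets. In the sets titled A2 and A1b, 51.8% and 50.7% of all genes were higher. In VavCre Arid2 the median of the 130 was -0.04, beside 0.01 for the 33 genes. Myc had log2 fold changes of -0.05, 0.37, 0.27 and 0.32 in the 4 sets. The smallest p-values in the VavCre Arid1b set belonged to Gltscr2, a nucleolar protein, at 0.67 ± 0.22, and Zfp622 at 0.37 ± 0.12, with edgeR adjusted p of 0.0745 and 0.0768. In the VavCre Arid2 set they belonged to the small-subunit factor Utp23 (-0.61 ± 0.20, adjusted p = 0.119 by edgeR) and the export adaptor Nmd3 (-0.70 ± 0.24, adjusted p = 0.126). For the set titled A2 they were Rpf1 and Utp14a, at -0.24 and -0.35. In the set titled A1b they were Rsl24d1 and Abt1, at 0.73 and 0.55, with an edgeR adjusted p of 0.125 for each.

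Other tests called a few of the 33 genes where edgeR called none. DESeq2 called Wdr12 as lower in the VavCre Arid1b set and Fbl as higher in the set titled A1b, and none in the others, beside 12.9%, 7.79%, 1.39% and 3.4% of all genes in VavCre Arid1b, VavCre Arid2, titled A2 and titled A1b. Limma's voom with sample weights called 4 genes as lower in VavCre Arid1b (Gar1, Nop14, Pes1 and Wdr12), 5 in VavCre Arid2 (Polr1a and Polr1c higher, Bop1, Dcaf13 and Wdr12 lower), 3 as higher in the set titled A2 (Bop1, Dkc1 and Wdr12) and 0 in the set titled A1b. It called 29.7%, 33.2%, 8.53% and 0.0851% of all genes. With the 6 libraries of a set fitted alone, edgeR called Bop1 and Dcaf13 as lower in VavCre Arid2 and none elsewhere, beside 8.26%, 7.6%, 0.023% and 0% of all genes.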

How the data were processed

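The deposited values were whole-number read counts per gene symbol, 1 column per library and 24 columns in all. Reads were aligned with STAR to mm10, per the submitters' processing notes. For the counter, annotation, strand setting and versions, the sources used here give nothing. Of the 33 genes, 17 have exons overlapped by a gene on the opposite strand, at most 1240 bases (Tsr1 with Srr), and 8 host small nucleolar RNA genes, so their counts could include such reads. Counts were fitted in edgeR 4.0.16 (R 4.3.3) after filterByExpr (minimum count 10, total 15), with TMM scaling and robust quasi-likelihood over all 24 libraries and 8 group means (16 residual degrees of freedom). Benjamini-Hochberg adjustment ran over 14099 genes, called at 0.05. CPM are the counts scaled by TMM library sizes. Deviations used log2 CPM with a prior count of 2. Coding length is the longest coding sequence in GENCODE M21 on GRCm38, known for 88.7% of tested genes. By rule, values in every library of a set were given for called genes and for the 4 smallest p, and the highest and lowest level per kb and the 2 smallest p of the other genes were named. Genes beyond this rule were chosen after their values were seen. The 33 genes and all lists were chosen with earlier results of these data known. Alternatives were RLE scaling, library totals only, DESeq2 1.42.0, voom in limma 3.58.1, other filters, a set alone, a replicate block, a Kdm5d term, 3 libraries left out together, and each library left out in turn. The main edgeR fit was tested on simulated counts, drawn for each gene on its own and so without movement shared within a library. The alternative fits were not tested in this way. No pair of libraries within a group looked like a duplicate, the smallest chi-square per gene between replicates being 14.4. Pairs across groups were not compared in this way.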

Additional observations from a re-analysis of the deposited data

Results flagged for a closer look

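The floxed effect on Zfp622, a factor of late large-subunit assembly outside the 33 genes, differed between the VavCre Arid1b set and the MxCre set titled A2 by 0.61 on the log2 scale (edgeR test of the difference itself, adjusted p = 0.0398). The log2 fold changes were 0.37 and -0.24. This was the 1 call among 130 other pathway genes over the 6 pairs of sets, and none of the 33 genes was called. Of all genes, 7.35% were called in this pair. The split of libraries by Kdm5d coincides with genotype in both sets, in opposite directions, and with a term for it the Zfp622 difference was 0.46 ± 0.28 (edgeR adjusted p = 0.518). The size of that term came from groups of the other sets, so it cannot separate the split from genotype here.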

How the results depend on the processing

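With a replicate block none of the 33 genes was called in any set. The block takes up residual degrees of freedom, and the share of all genes called was not computed for that fit. Its 0 can therefore not be read as a result about the 33 genes. In that fit 8 of them lay lower in the set titled A1b. Replicate numbers gave no pairing: same-numbered libraries had correlations of deviations from -0.217 to 0.259, with 2 of 11 above 0.1. DESeq2 called 1, 0, 0 and 1 of the 33 genes in the VavCre Arid1b, VavCre Arid2, titled A2 and titled A1b sets. In the same sets it called 2, 1, 0 and 3 other pathway genes, beside 12.9%, 7.79%, 1.39% and 3.4% of all genes. Over the differences between sets it called Wdr12 for VavCre Arid1b against titled A2 (13.6% of all genes). For VavCre Arid1b against titled A1b it called Pes1 (5.72%), and for the other pairs 0 of the 33 (1.86% to 8.13%). Voom called 4, 5, 3 and 0 of the 33 and 22, 33, 11 and 0 other pathway genes, beside 29.7%, 33.2%, 8.53% and 0.0851% of all genes. Over the differences it called 14 of the 33 for VavCre Arid1b against titled A2 (33.3% of all genes) and 9 for VavCre Arid2 against titled A2 (33.8%). Against titled A1b it called 1 for VavCre Arid1b (5.45%) and 2 for VavCre Arid2 (12.2%). It called 0 between the VavCre sets (17.6%) and 0 between the sets titled A2 and A1b (0.17%). A gene can count in more than 1 pair. Over control groups it called 9 of the 33 (35.2% of all genes) and over floxed groups 26 (57.8%). By voom, 0 of the 33 lay lower in the set titled A2. Each set alone gave 0, 2, 0 and 0 of the 33, and 3 and 4 other pathway genes in the VavCre sets. The shares of all genes were 8.26%, 7.6%, 0.023% and 0%. Without the 3 libraries set apart (VavCre Arid1b control 3, titled A2 floxed 3, titled A1b floxed 2), 0 and 1 of the 33 lay lower in the sets titled A2 and A1b. Over the differences that fit called 3 for VavCre Arid2 against titled A2 (13.9% of all genes). For VavCre Arid1b it called 1 against titled A2 (12.9%) and 1 against titled A1b (2.25%). It called 0 for the other pairs (0.0279% to 5.15%). In that fit 2 other pathway genes were called in each VavCre set, for which the share of all genes was not computed. With the Kdm5d term, whose size came from groups of the other sets, 17 lay lower in VavCre Arid1b and 15 in the set titled A2. With library totals only, 8 lay lower in the set titled A1b. Leaving out each library in turn gave 20 to 30, 12 to 24, 0 to 11 and 1 to 19 genes lower in VavCre Arid1b, VavCre Arid2, titled A2 and titled A1b. The medians ran from -0.35 to -0.03, -0.08 to 0.08, 0.03 to 0.40 and -0.17 to 0.43. Of all genes, these fits called 62 to 734 in VavCre Arid1b and 15 to 227 in VavCre Arid2. They called 0 to 18 in the set titled A2 and 0 to 1535 in the set titled A1b. The 33 genes called stayed at 0 except for 0 to 2 in the set titled A1b, where other pathway genes reached 0 to 14. Those upper values came without floxed library 1, in a fit that called 1535 of 14369 genes. The cause was not tested. For the 4 genes with the smallest p in each set, 256 alternative values were computed, of which 242 kept direction and side of the threshold, 14 newly passed and 0 reversed. These genes were picked by p in the same data, and none had passed. No call could therefore be lost and a reversal was unlikely, so these counts do not describe the other genes. Other genes did turn sign: without VavCre Arid1b control 3, Npm1, Dkc1 and Nhp2 gave 0.07, 0.05 and 0.04 in that set. Nop56, Wdr43, Imp4, Tsr1 and Gnl3 also turned higher in that fit, and Npm3 turned lower. Without floxed library 1 of the set titled A1b, 19 of the 33 genes lay lower in place of 3.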

Other observations

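Over the 4 floxed groups, 3 of the 130 other genes differed by the edgeR F test: Zfp622 (adjusted p = 0.0351), and the MYC antagonists Mxi1 (adjusted p = 0.0372) and Mxd1 (adjusted p = 0.0421). Of all genes, 9.06% passed that test.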
